A study of Homo sapiens with 3 samples.

Results

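HA-PSF-TFE3, a fusion protein, was mapped by ChIP-seq (chromatin immunoprecipitation with sequencing) at 6 genes that mark or control the epithelial or mesenchymal state of a cell: CDH1, KRT8 and KRT18 on the epithelial side and CDH2, VIM and ZEB1 on the mesenchymal side. Members were the peak summits whose start lay in fixed windows on hg19, each made of the gene with about 10 kb on either side. KRT8 and KRT18 lie next to each other and shared 1 window, so the 6 genes took up 5 windows and 705 kb in all. The windows held 15 of the 44983 summits in the replicate 8 library and 10 of the 28084 in the replicate 9 library. A summit is the single base with the highest enrichment in a peak, and its score is the −log10 of the peak's q-value.

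HK-2 is an established cell line from the epithelium of human proximal tubules. The cells carried a doxycycline-inducible construct for the HA-tagged fusion of PSF, also named SFPQ, to the transcription factor TFE3, and they received 0.2 µg/ml doxycycline for 24 h. Both ChIP libraries, labelled replicates 8 and 9, came from such induced cells, each from its own clone, and 1 input DNA library from induced cells served as the authors' background. All groups were induced, so binding with and without the fusion was not compared, and with 1 group of 2 libraries there was no test between conditions. Expression from an inducible construct, and the use of an HA tag, limit the cells as a model of the fusion in a tumour.

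Epithelial cells hold on to each other through E-cadherin, encoded by CDH1, and are stiffened by keratin filaments built from pairs of a type II and a type I keratin, such as keratin 8 and keratin 18. Mesenchymal cells tend to use N-cadherin, encoded by CDH2, and filaments of vimentin, encoded by VIM. ZEB1 is a zinc finger repressor that binds E-box sequences at CDH1 and other epithelial genes and favours the mesenchymal state. TFE3 belongs to the MiT/TFE family of basic helix-loop-helix factors, which also recognise E-boxes, mainly CACGTG or the related CATGTG. HK-2 cells are epithelial in origin, although cultured tubule lines often make vimentin as well. Expression of these genes was not measured in this series, so neither state could be checked against markers here. In separate experiments on HK-2 cells with the inducible fusion, the paper reported lower keratin protein under doxycycline. It also described a change from a cobblestone to a more mesenchymal appearance. Those experiments were not on the ChIP samples.

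Summits were found at CDH1, at KRT8 and KRT18, and at CDH2 in both libraries, at ZEB1 in replicate 8 alone, and at VIM in neither. The mean number in all windows was 12.5 ± 3.54 summits per library (SD, n = 2). Recurrence was counted within 200 bp. It was seen for 9 of the 15 summits in replicate 8, or 60% (35.7 to 80.2%, 95% Wilson interval), beside 47.9% of the whole list. In replicate 9 it was seen for 9 of the 10, or 90% (59.6 to 98.2%), beside 76.6% of that list. Both whole-list shares lay inside the intervals for the genes, so recurrence at these genes could not be told from that of the lists at large. The intervals cover counting error only, and neighbouring summits are not independent.

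Scores at these genes were mostly moderate or low for their lists. The median score was 6.79 in replicate 8, where the whole list had 8.20, and 5.92 in replicate 9, where it had 10.5. In replicate 8, 6 of the 15 scored at least 10 (40%), beside 41.7% of that list, and in replicate 9, 3 of the 10 did (30%), beside 51.6%. The 1 site that stood high in both libraries was at CDH1.

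**Figure D1:**
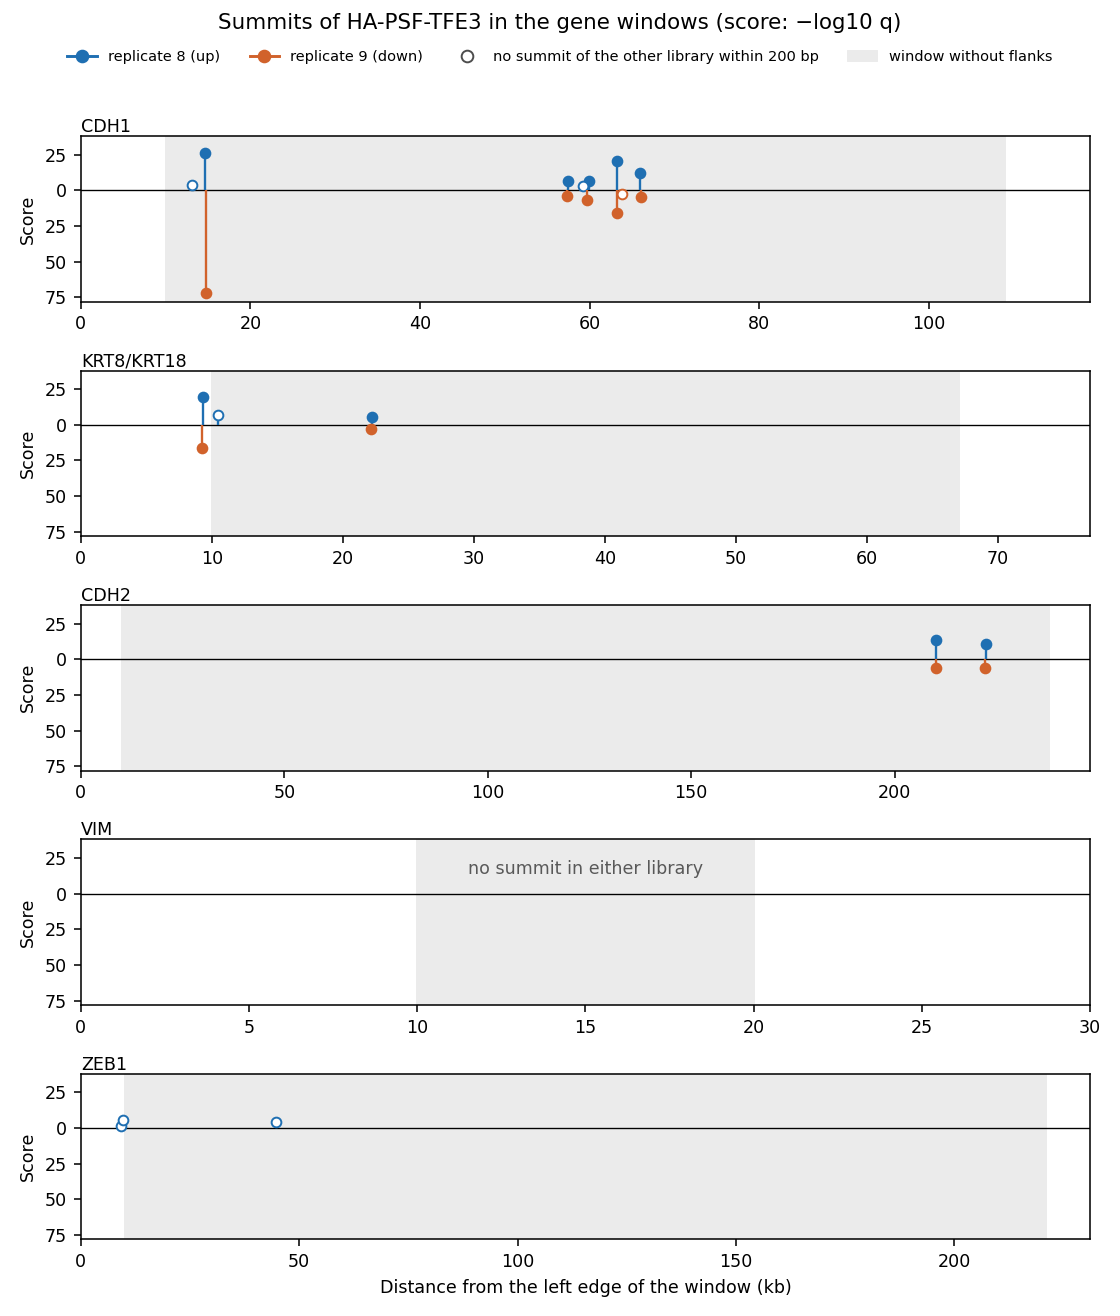
Each panel plots 1 gene window, with distance from its left edge in kb on the horizontal axis, on a scale that differs between panels, and the summit score (−log10 q) on the vertical axis, upward for replicate 8 and downward for replicate 9. Filled points had a summit of the other library within 200 bp, open points had none, and grey marks the window without its flanks; the tallest line is the CDH1 site, with scores of 26.1 and 71.7, and the VIM panel is empty.

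CDH1 (ENSG00000039068, chromosome 16, plus strand) had the most summits of the 5 windows. Its 119 kb window, chromosome 16 from 68761 to 68880 kb, held 7 summits in replicate 8 and 6 in replicate 9. Tiles of the same length ran consecutively over the numbered chromosomes and X. Their median count was 1 in replicate 8 and 0 in replicate 9, with upper quartiles of 2 and 1. Of these tiles, 41.7% had a summit of both libraries. Every summit in this window lay inside the gene as the window places it, and none lay in the 42.9 kb before its 3′ end.

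The strongest CDH1 summit lay at position 68775632 in replicate 8, with a score of 26.1, and at 68775738 in replicate 9, with a score of 71.7. The libraries placed it 106 bp apart. It ranked 4675th of 44983 in replicate 8, at percentile 89.6, and 404th of 28084 in replicate 9, at percentile 98.6. Because the window reaches about 10 kb upstream of the gene, the site stood about 4.63 kb inside CDH1, with an uncertainty of about 1 kb from the rounding of the window. It was the highest-scoring summit in the windows in either library. Replicate 8 had a further summit upstream of it, at 68774140 with a score of 3.91, 1598 bp from the nearest replicate 9 summit.

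A stretch without summits followed, 42.8 kb long in replicate 8 and 42.6 kb in replicate 9, and then a second group, about 47 to 56 kb into the gene. Its strongest site lay at 68824181 in replicate 8 and 68824266 in replicate 9, with scores of 20.3 and 15.8, at percentiles 82.9 and 65.4. The other 3 sites found in both libraries were weaker. The summits at 68818419 and 68818330, 89 bp apart, had scores of 6.67 and 3.81. Those at 68820890 and 68820727, 163 bp apart, scored 6.79 and 6.78, nearly alike. Those at 68826962 and 68827054, 92 bp apart, scored 12.0 and 4.87, so that the same site stood at percentile 66.0 in replicate 8 and 18.0 in replicate 9. A summit in replicate 8 alone, at 68820170 with a score of 3.38, and a summit in replicate 9 alone, at 68824789 with a score of 2.64, made up the rest of the group. Both were among the weakest of their lists, at percentiles 10.4 and 2.96.

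Neither library had a summit from 68827054 to the end of the window. The next summits, 55.8 kb past the window, were at 68935820 in replicate 8 and 68935813 in replicate 9, with scores of 15.0 and 13.4.

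KRT8 (ENSG00000170421, minus strand) and KRT18 (ENSG00000111057, plus strand) encode the keratin pair of simple epithelia, the tubule included. Their window of 77 kb, chromosome 12 from 53280 to 53357 kb, held 3 summits in replicate 8 and 2 in replicate 9. The median tile of this length held 0 in each library, with upper quartiles of 2 in replicate 8 and 1 in replicate 9. Of these tiles, 32.5% had a summit of both. The stronger shared site lay at 53289305 in replicate 8, with a score of 19.8 and percentile 82.3, and at 53289248 in replicate 9, with a score of 16.5 and percentile 66.4. As the window places the genes, it stood within 1 kb outside the left end of the gene pair, which is the 3′ end of KRT8. That distance carries about 1 kb of error from the rounding of the window. The other shared site was weak, at 53302188 with a score of 5.60 in replicate 8 and at 53302149 with a score of 3.01 in replicate 9. Replicate 8 also had a summit at 53290441, scoring 6.83, whose nearest replicate 9 summit was 1193 bp away.

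From 53302188 to the right edge of the window, the side on which KRT18 lies, neither library had a summit over 54.8 kb. Just past that edge, by 1.47 kb, replicate 8 had a summit at 53358471 with a score of 7.56, whereas the next replicate 9 summit was 26.6 kb past it. The surroundings of this window held more summits than the window did. Widening it by 50 kb on each side added 11 summits in replicate 8 and 7 in replicate 9, while the same step added at most 1 summit in either library at each of the other 4 windows.

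CDH2 (ENSG00000170558, chromosome 18, minus strand) had 2 summits in each library in a window of 248 kb, chromosome 18 from 25520 to 25768 kb. Both recurred. The first lay at 25730262 in replicate 8 and 25730235 in replicate 9, 27 bp apart, with scores of 13.5 and 5.92. The second lay at 25742432 and 25742309, 123 bp apart, with scores of 10.8 and 5.92. The pair thus ranked above the median of replicate 8, at percentiles 69.6 and 61.5, and in the lower part of replicate 9, both at percentile 25.8. As CDH2 is read from right to left, these sites stood about 28 and 16 kb into the gene from its 5′ end.

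The CDH2 sites were far from other binding. The nearest replicate 9 summits outside the window were 687 kb to its left and 406 kb to its right, so that these were the sole replicate 9 summits in 1341 kb. In replicate 8 they were the sole summits in 750 kb. Tiles of this length had a median of 2 summits in replicate 8 and 1 in replicate 9, and 59.0% of tiles had a summit of both libraries, so that the number at CDH2 was close to the middle of the tiles in each library.

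VIM (ENSG00000026025, chromosome 10, plus strand) had no summit in its 30 kb window, chromosome 10 from 17260 to 17290 kb, in either library. The window is the shortest of the 5, and 74.8% of all tiles of that length also had no summit of either library. The nearest summit in replicate 8 lay 11.6 kb to the left of the window, at 17248399 with a score of 12.8, and it had no counterpart in replicate 9. The nearest replicate 9 summits were 142 kb to the left and 96.4 kb to the right. The stretch without a summit around VIM was 129 kb in replicate 8 and 269 kb in replicate 9. A missing summit means that no peak passed the authors' threshold there, and the depth behind the lists was not used here.

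**Figure D2:**
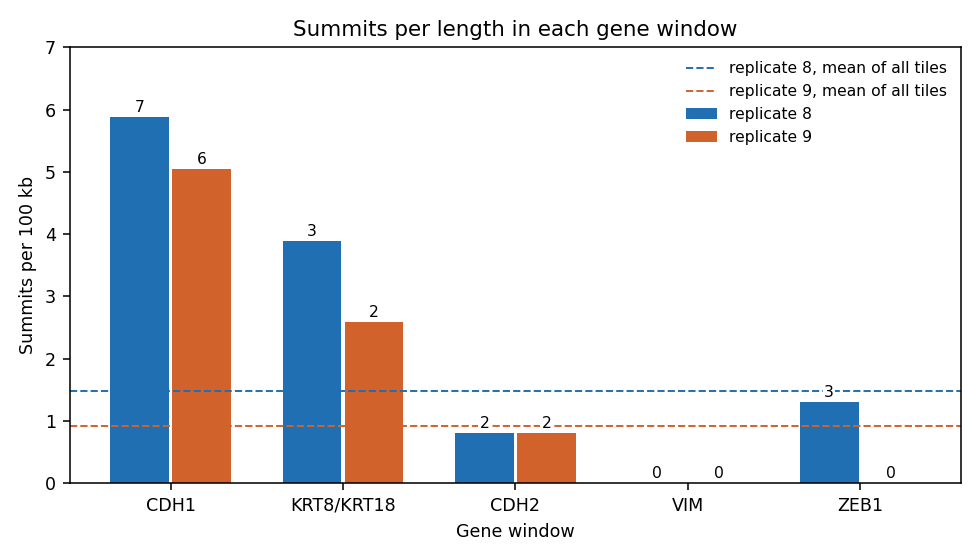
Bars give summits per 100 kb in each gene window (vertical axis) for replicate 8 and replicate 9, the number above each bar is the count of summits, and dashed lines mark the mean over all consecutive tiles of the genome, 1.48 per 100 kb in replicate 8 and 0.925 in replicate 9. The CDH1 and the KRT8/KRT18 bars lie above the lines in both libraries, and the CDH2, VIM and ZEB1 bars lie below the line of their library.

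ZEB1 (ENSG00000148516, chromosome 10, plus strand) had summits in replicate 8 alone. Its 231 kb window, chromosome 10 from 31598 to 31829 kb, held 3 summits in replicate 8 and 0 in replicate 9, and all 3 were weak. The first 2 lay 474 bp apart at 31607070, with a score of 1.58, and 31607544, with a score of 5.40, both within 1 kb of the start of the gene as the window places it. The third lay at 31642601, about 35 kb into the gene, with a score of 4.15. Their percentiles in replicate 8 were 0.136, 32.7 and 18.6, and the lowest score was close to the stated cutoff, a q-value of 0.05 or a score of 1.30. The replicate 9 summit nearest to any of them was 75207 bp away. Of tiles of this length, 65.8% had a summit of replicate 8 and 59.0% one of replicate 9.

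On either side of ZEB1 the libraries had the same sites. To the left, summits stood at 31531926 in replicate 8, with a score of 15.4, and at 31531863 in replicate 9, with a score of 21.6. To the right, they stood at 31891713 and 31891542, with scores of 11.8 and 7.68. Between them replicate 9 had no summit over 360 kb. The replicate 8 list was also cut to its strongest 28084 summits, the length of the replicate 9 list. None of the ZEB1 summits, which ranked 44923rd, 30257th and 36623rd, was then left. All windows together had 9 summits in replicate 8 and 10 in replicate 9, so that the excess of replicate 8 was not kept at equal list lengths.

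The start of ZEB1 is shown because, of the 4 genes whose start the windows place (CDH1, CDH2, VIM and ZEB1), it is the 1 with a summit within 1 kb. Those summits were weak and in replicate 8 alone, and their distance to the start carries about 1 kb of error. The starts of KRT8 and KRT18 lie inside their shared window and were not placed. Sequences are from RefSeq on GRCh38.p14, a build other than that of the summits, and were matched by gene symbol, so that a summit cannot be placed on them. RefSeq promoter entries, which run from 250 bases before a transcript start to 50 bases after it, were matched for 4 of the 6 genes: 7 for ZEB1, 2 for CDH2 and 1 each for VIM and KRT8. The first sequence is the 250 bases before the outermost ZEB1 start, chr10:31318167-31318416, plus strand, with no match to any motif searched. The second is 30 bases before the start that lies farthest into the gene, chr10:31321613-31321642, plus strand, with 2 matches to CATGTG in capitals, which begin 40 and 29 bases before that start. The matches thus belong to a start other than the outermost. That stretch is shown for its matches and not for a nearby summit. Of the 250 bases before that inner start, 116 are annotated in GENCODE as untranslated region of ZEB1.
ZEB1 outermost start: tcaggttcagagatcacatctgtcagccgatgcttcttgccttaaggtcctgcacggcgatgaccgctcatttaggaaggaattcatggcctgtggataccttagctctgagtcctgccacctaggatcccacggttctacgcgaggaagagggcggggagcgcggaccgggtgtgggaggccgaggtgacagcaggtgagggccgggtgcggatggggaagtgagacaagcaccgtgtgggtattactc
ZEB1 innermost start: ctgacgaCATGTGtgtgaCATGTGagtctg

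The motifs searched on both strands were CACGTG, the related CATGTG, the longer CLEAR sequence of lysosomal genes, which contains CACGTG, and the AP-1 sequence TGACTCA, which is read as TGAGTCA on the other strand. CATGTG was present in 1 of the 7 ZEB1 entries and in none of the CDH2, VIM and KRT8 entries, beside 11.1% of the 35116 entries for all genes. CACGTG was in none of the entries for these 4 genes, beside 7.26% for all genes, and the same held for the CLEAR sequence, beside 0.353%, and TGACTCA, beside 4.95%. A match describes the letters of this stretch and not binding. The bases under the summits could not be read, because no hg19 sequence was used here.

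The 9 summit pairs of the windows, 5 at CDH1, 2 at CDH2 and 2 at KRT8/KRT18, lay 27 to 163 bp apart, with a median of 89 bp beside 52 bp over all 21518 pairs. In 8 of the 9 pairs the score was higher in replicate 8, beside 53.5% of all pairs. The ratio of the replicate 9 to the replicate 8 score had a median of 0.571, and of 0.952 over all pairs, whose quartiles were 0.621 and 1.39. The exception was the strongest CDH1 site, with a ratio of 2.74. The order of sites nonetheless began alike in both libraries. The site about 4.63 kb into CDH1 came first in each. The second site of CDH1, at 68824181, and the site near the 3′ end of KRT8 followed in both. Their percentiles were 82.9 and 82.3 in replicate 8 and 65.4 and 66.4 in replicate 9, which puts them in opposite order and does not separate them. Scores are not normalised between the lists and no test was run on these pairs, since sites of 1 gene are neighbours and there is 1 value per library.

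**Figure D3:**
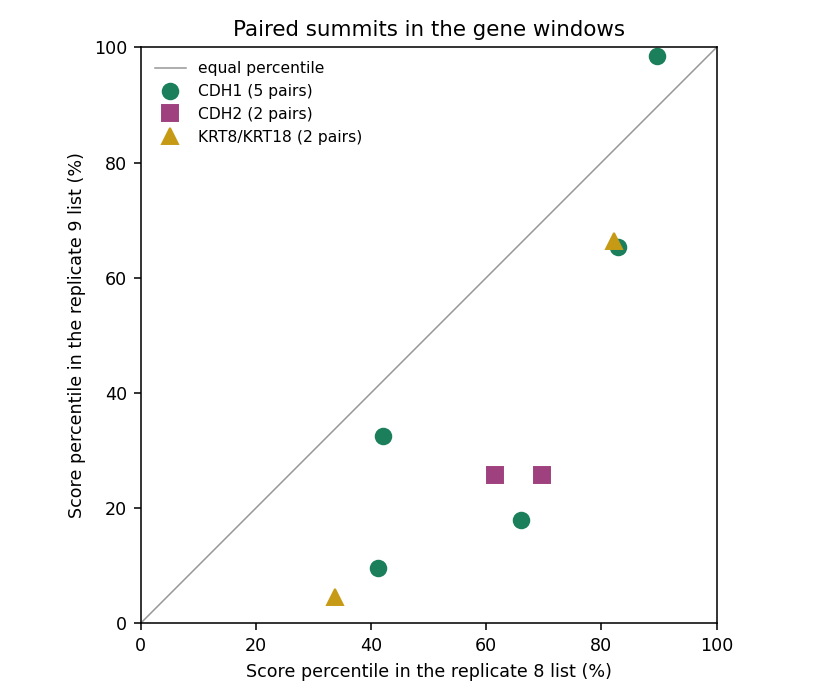
Each point is 1 of the 9 summit pairs, with its score percentile within the replicate 8 list on the horizontal axis and within the replicate 9 list on the vertical axis, in percent; marker shape gives the gene window and the line marks equal percentiles. The CDH1 site at percentiles 89.6 and 98.6 lies above the line and the other 8 pairs lie below it. Most pairs of the whole lists also lie below it. Over all 21518 pairs the replicate 9 minus the replicate 8 percentile had a median of −10.4, with quartiles of −26.6 and 0.205.

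Counted by state, the windows of the epithelial genes held 10 summits over 196 kb in replicate 8 and 8 in replicate 9, which is 5.10 and 4.08 per 100 kb. The windows of the mesenchymal genes held 5 and 2 over 509 kb, which is 0.982 and 0.393 per 100 kb. The mean over all tiles of the genome was 1.48 per 100 kb in replicate 8 and 0.925 in replicate 9. The epithelial windows had 7 of the 9 pairs. CDH1 alone supplied 7 of the 10 and 6 of the 8 epithelial summits, and without its window the mean over all windows fell from 12.5 to 6 summits per library. With 2 windows on one side and 3 on the other, and with windows of unequal length, the difference in density was not tested and is given as a description of these 5 loci. Other genes in the windows, such as the antisense transcripts CDH2-AS1, VIM-AS1 and ZEB1-AS1, overlap the genes named here in RefSeq, as KRT8 and KRT18 overlap each other, and a summit does not say which of them it belongs to.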

How the data were processed

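HA-PSF-TFE3 ChIP-seq libraries replicates 8 and 9 were analysed; the input library had no list of its own. Chromatin was recovered by its HA tag, and the authors ran MACS2 in each library against the input, without pooling. The deposited values are 1 bp summits with scores on the −log10 q-value scale, not normalised between libraries. The labels name hg19, and the methods name hg38 as well. Because 364 and 262 summits lay past hg38 chromosome ends, hg19 was used and no coordinate was converted. The aligner's settings are not certain, since the descriptions of alignment, cutoff and read length differ. The fusion is named as in the labels, whereas the series' design text names PRCC-TFE3.

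Members, windows and lists were chosen with earlier results of these data known. The rule for what the text names was: all 6 genes with every summit, since no window had more than 5 pairs. Windows were given in whole kb and were not checked against an hg19 annotation, so distances into a gene carry about 1 kb of error. Mutually nearest summits within 200 bp formed pairs. Percentiles are the share of the same list with an equal or lower score. Tiles of each window's length ran consecutively up to the last summit of the numbered chromosomes and X, including assembly gaps. They were not matched to the windows for gene content. Gene identifiers and strands are from GENCODE, and names of overlapping genes and promoters from RefSeq. Alternatives were minimum scores of 5 and 10, distances of 50 and 500 bp, lists of equal length, merging of summits under 500 bp apart, windows without flanks or widened by 50 kb, and leaving out each replicate. Distance functions were tested on simulated lists. Depth is unknown from the lists, so no precision from depth is given. Software was pandas 2.3.3 with scipy 1.17.1 for the statistics and matplotlib 3.10.9 for plots, run with numpy 2.4.6 under Python 3.11.15.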

Additional observations from a re-analysis of the deposited data

How the results depend on the processing

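The mean number of summits per library in the gene windows was 10 to 15 when either replicate was left out and moved to 4.5 with a minimum score of 10, to 22.5 with windows widened by 50 kb and, in an alternative chosen after seeing the data, to 6 without the CDH1 window. The 9 pairs became 3, 17 and 4 under the same settings and 2 within 50 bp. The share of replicate 8 summits with a partner became 88.9% (8 of 9) at equal list lengths, beside 66.7% of the whole list, and 13.3% (2 of 15) within 50 bp, beside 23.3%. That of replicate 9 became 100% with a minimum score of 5 (6 of 6) or 10 (3 of 3), beside 76.5% and 76.2%, and 20.0% (2 of 10) within 50 bp, beside 37.4%. These few summits were not tested against the lists, and the genes lay above the lists in some settings and below them in others. Mean density, 1.77 summits per 100 kb, was 0.638 with a minimum score of 10. It was 1.42 without replicate 8 and 2.13 without replicate 9, beside tile means of 0.925 and 1.48. The distance and the score minimum lower counts by construction, and wider windows raise them because they cover more sequence. Leaving out a replicate gives no share or pair. No paired analysis was possible because there was 1 group of ChIP libraries. With 25 summits in all, a share moves by many percentage points with 1 summit, and sites in 1 library alone cannot be told apart from sites just under the threshold in the other.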

Other observations

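Promoter letters were also read for other genes of the 2 programmes. Over all 35116 RefSeq entries, CATGTG was present in 11.1%, CACGTG in 7.26%, TGACTCA in 4.95% and the CLEAR sequence in 0.353%. Of 10 mesenchymal genes, 6 were matched: CATGTG was present for 1, ZEB2, the paralogue of ZEB1, TGACTCA for 1, ITGA5, the integrin alpha 5 subunit of a fibronectin receptor, and the other motifs for none. Of 11 epithelial genes, 5 were matched, and none of the motifs searched was present. With so few genes, and shares this low over all entries, these counts do not set either list apart from all genes or from the other list. Genes have unequal numbers of entries, and summits at these genes were not analysed here.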
